A study of Mus musculus with 11 samples.

Results

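The sarcomeric myosin heavy chain genes Myh1, Myh2, Myh3, Myh4, Myh6, Myh7 and Myh8 (7 genes) were followed in mouse tibialis anterior, a muscle of the lower leg, on 11 Affymetrix arrays. Members were chosen by symbol in the platform annotation. Of the 45101 probe sets on an array, 11 were annotated to a single member, and 10 of these had signal enough to be tested. A further 2 probe sets were annotated to Myh6 and Myh7 together and are described apart. Each mouse carried 1 floxed and 1 null allele of Runx1, written runx1f/-, in both genotypes. The 4 groups were muscle denervated for 3 days in MCK::cre mice (3 arrays), muscle denervated for 3 days in control mice (3 arrays), innervated MCK::cre muscle (2 arrays) and innervated control muscle (3 arrays). MCK::cre places Cre recombinase under the muscle creatine kinase promoter, which is active in muscle fibres and not in the other cells of the tissue. Only the MCK::cre mice carried Cre, so an effect of Cre itself and an effect of targeting Runx1 cannot be told apart. The labels read for this work give no age for the mice. For denervated control array 3 the title gives 3 days and the treatment note gives 5 days, so results that rest on it are also given without it. The labels do not state that the arrays of a group came from separate animals, so each p-value measures the spread between these samples.

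A sarcomeric myosin heavy chain is the motor protein of the thick filament, and the isoform a fibre makes sets how fast it shortens. Embryonic and perinatal isoforms (Myh3 and Myh8) are made during development and again in regenerating fibres. Adult fast fibres use the 2A, 2X and 2B isoforms (Myh2, Myh1 and Myh4), slow fibres and the heart ventricle use the slow or beta-cardiac isoform (Myh7), and the adult mouse heart uses the alpha-cardiac isoform (Myh6). Tibialis anterior is a fast muscle in the mouse, and the nerve is known to shape which isoforms its fibres make. Runx1 encodes a DNA-binding transcription factor that is induced in denervated muscle. In the RefSeq gene table (GRCm38.p6) the genes of the fast and developmental isoforms stand next to each other on chromosome 11 in the order Myh3, Myh2, Myh1, Myh4 and Myh8, followed by Myh13. Myh6 and Myh7 are neighbours on chromosome 14.

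Promoter windows in the RefSeq table reach from 250 bases before to 50 bases after each annotated start, and all 7 genes matched, with 8 windows. The stretches of Myh3 and Myh2 are shown because these genes differed most between the genotypes, each to 30 bases after its start (GRCm38.p6, plus strand). They lie at chr11:67078050-67078329 for Myh3 and chr11:67170777-67171056 for Myh2. In Myh3 the capitals mark the letters TGTGGT, which begin 94 bases before the start, and the TATAAA that begins 29 bases before it. TGTGGT is a match to TGNGGT, the loose form of the RUNX motif that was searched, where N is any base. In Myh2 they mark a 14-base run that it shares with Myh1, Myh4 and Myh8, and a TATAAA that begins at base 11 counted from the start.
Myh3: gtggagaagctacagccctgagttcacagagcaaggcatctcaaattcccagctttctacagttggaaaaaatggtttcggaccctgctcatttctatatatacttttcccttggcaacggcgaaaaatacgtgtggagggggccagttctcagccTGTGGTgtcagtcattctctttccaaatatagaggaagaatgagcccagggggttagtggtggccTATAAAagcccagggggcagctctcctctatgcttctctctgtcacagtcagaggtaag
Myh2: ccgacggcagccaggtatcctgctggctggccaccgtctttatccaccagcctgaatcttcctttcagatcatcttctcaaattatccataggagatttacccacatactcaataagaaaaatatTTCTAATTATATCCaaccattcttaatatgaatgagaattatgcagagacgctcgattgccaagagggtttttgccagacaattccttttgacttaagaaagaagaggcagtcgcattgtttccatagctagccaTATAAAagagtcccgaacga

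The shared run was found in 4 of 32851 promoter windows, those of Myh1, Myh2, Myh4 and Myh8, and not in the window of Myh3. It begins 125 bases before the start in Myh2, 160 in Myh1, 158 in Myh4 and 54 in Myh8. The following stretches show its surroundings, with the run in capitals (GRCm38.p6, plus strand). They are chr11:67170857-67170920 in Myh2, chr11:67199897-67199960 in Myh1, chr11:67237609-67237672 in Myh4 and chr11:67277025-67277088 in Myh8.
Myh2: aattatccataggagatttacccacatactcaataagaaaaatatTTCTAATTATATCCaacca
Myh1: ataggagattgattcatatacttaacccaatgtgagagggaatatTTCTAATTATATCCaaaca
Myh4: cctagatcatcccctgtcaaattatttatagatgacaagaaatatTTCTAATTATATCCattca
Myh8: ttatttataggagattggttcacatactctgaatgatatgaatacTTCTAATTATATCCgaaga

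Searched on both strands with any base as N, TGNGGT had 1 match in the Myh3 window, 2 in Myh4 and 1 in a window of Myh7. It had no match in the windows of Myh1, Myh2, Myh6 and Myh8. The letters found were TGTGGT in Myh3, TGAGGT and TGGGGT in Myh4 and TGAGGT in Myh7. TGTGGT itself was thus in Myh3 alone among the members. Of all promoter windows 45.8% hold a match to TGNGGT, so such a match is common. The share that hold TGTGGT itself was not counted. The E-box CANNTG, the letters that myogenic regulators such as Myog and Myod1 recognise, had matches in Myh3 (1), Myh4 (3), Myh8 (2), Myh6 (1) and both Myh7 windows (2 each), where 72.3% of all windows hold one. It had none in the windows of Myh1 and Myh2. The M-CAT letters CATTCC, recognised by TEAD factors, were present in windows of Myh1, Myh4, Myh6 and Myh7 and in 14.7% of all windows. A CArG box, searched under that name, was found in Myh4 alone among the members and in 1.63% of all windows. The strict pattern searched under the name MEF2 matched in none of the members and in 0.557% of all windows. Looser forms of the MEF2 site were not searched. The stretches of Myh4 and Myh8 printed above each hold letters that fit a looser form, so no absence of MEF2 sites is read from this search. On the strand of the gene TATAAA was present in Myh3, Myh2, Myh1, Myh4 and Myh6, against 8.32% of all windows. It began before the annotated start in Myh3, Myh1 and Myh4, but after it in Myh2 (base 11) and Myh6 (base 2). No binding was measured in these samples, and a match or its absence describes the letters of the window only.

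Signals are the deposited linear intensities, and every array has the same trimmed mean. The median signal of an array lay between 442.5 and 523.5 on the 6 denervated arrays and between 505.7 and 604.6 on the 5 innervated arrays. The added hybridisation controls were dimmer on denervated arrays (mean log2 signal 13.15 to 13.74) than on innervated ones (13.83 to 14.30), and the added polyA controls likewise (11.05 to 11.38, against 11.55 to 11.67). The 5'-to-3' log2 ratio of housekeeping transcripts was -0.039 to 0.066 on denervated and 0.082 to 0.164 on innervated arrays. These controls move with denervation, and their part in the denervation changes was not tested beyond the alternative scalings given beside the results. The 9 fast-muscle marker genes all had tested probe sets, with a summed signal of 1305100 to 1620829 in denervated MCK::cre, 1259386 to 1827672 in denervated control, 2085933 to 2334124 in innervated MCK::cre and 1926469 to 2198678 in innervated control muscle. Runx1 had 6 tested probe sets. The brightest had signals of 20403 to 23185 in denervated MCK::cre and 23499 to 25898 in denervated control muscle, against 288.2 to 395.0 in innervated MCK::cre and 178.9 to 519.1 in innervated control muscle. All denervated MCK::cre arrays lay below all denervated control arrays on 3 of the 6, this one narrowly included, and the genotypes overlapped on the other 3. The share of all probe sets that separate likewise was not counted, so no difference of Runx1 is read from this count. Of the other 2 that did not overlap, one had 1209 to 2217 in denervated MCK::cre and 2619 to 3858 in denervated control muscle, and the other had 1145 to 1493 in denervated MCK::cre and 1574 to 3049 in denervated control muscle. Where the probe sets lie relative to the floxed part is not known here, so they check nothing about the deletion. In these bulk samples fewer fibres of a type and less RNA per fibre cannot be told apart. The trp control probe sets, which are directed at a bacterial gene, ranged from 13.8 to 440 and serve as a guide to background. Differences are log2 values of limma's fit on log2(signal + 16) with the standard error (SE), and each adjusted p is Benjamini-Hochberg over all 26170 tested probe sets, with a threshold of 0.05.

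**Figure D1:**
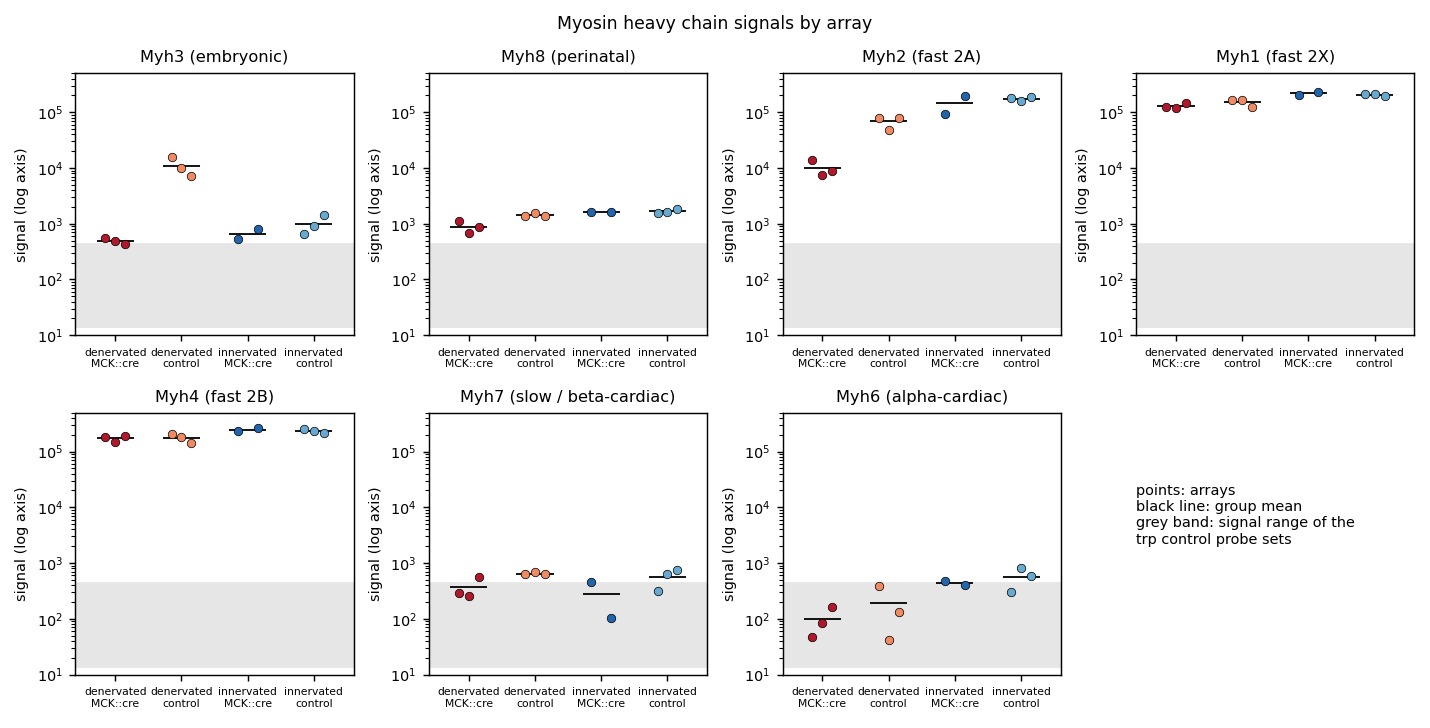
Signal of each myosin heavy chain gene (log axis) on every array by group, with the group mean as a black line and the trp control range in grey. Myh3 is high in denervated control muscle alone, Myh2 is lowest in denervated MCK::cre muscle, and Myh7 and Myh6 lie in or near the grey band.

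Myh3, the embryonic isoform, rose with denervation in control muscle and was far lower in denervated muscle of MCK::cre mice. Its signals on probe set 1427115_at were 545.0, 490.8 and 430.3 in denervated MCK::cre muscle. In denervated control muscle they were 15508, 10189 and 7251. Innervated MCK::cre muscle had 535.3 and 800.3, and innervated control muscle 657.9, 895.0 and 1438. The denervated control arrays stood above all other arrays, and those of the other groups overlapped between neighbours except that denervated MCK::cre lay below innervated control. The means were 488.7 ± 57.4 in denervated MCK::cre, 10983 ± 4185 in denervated control, 667.8 ± 187.4 in innervated MCK::cre and 997.1 ± 400.1 in innervated control muscle (SD, n = 3, 3, 2 and 3), so that the order from high to low was denervated control, innervated control, innervated MCK::cre and denervated MCK::cre. One denervated MCK::cre array, at 430.3, lay inside the range of the trp controls.

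With denervation Myh3 changed by -0.42 ± 0.34 in MCK::cre muscle (limma adjusted p = 0.399, 95% interval -1.16 to 0.33). In control muscle the difference was 3.44 ± 0.31, a 10.9-fold rise (limma adjusted p = 3.36e-06), and without denervated control array 3 it was 3.71. Between the genotypes Myh3 was 20.9-fold lower in denervated MCK::cre than in denervated control muscle (-4.38 ± 0.31, limma adjusted p = 1.74e-05). That difference ranked 4 by p and 3 by size among the 26170 probe sets. The denervated MCK::cre mean, 488.7, was close to the upper end of the trp control range, 440. The sizes of this difference and of the difference of the denervation changes are therefore not exact. In innervated muscle the genotype difference was -0.52 ± 0.34 (limma adjusted p = 0.998, 95% interval -1.27 to 0.22). The test of the difference itself, the denervation change in MCK::cre minus that in control muscle, gave -3.86 ± 0.46 (limma adjusted p = 0.00603), rank 6 by p. Every alternative processing that was run kept the genotype difference between -4.76 and -4.10 and the difference of the denervation changes between -4.22 and -3.58, past the threshold each time.

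Myh8, the perinatal isoform, had signals of 1126, 673.5 and 856.3 in denervated MCK::cre muscle and 1360, 1553 and 1361 in denervated control muscle. Innervated MCK::cre muscle had 1644 and 1611, and innervated control muscle 1565, 1631 and 1854. The denervated MCK::cre arrays lay below all others, and the denervated control arrays, which did not overlap with either innervated group, lay between. Myh8 fell 1.86-fold with denervation in MCK::cre muscle (-0.90 ± 0.22, limma adjusted p = 0.00871), a call that ended under 4 of 22 alternatives, with adjusted p between 0.0536 and 0.283. These were median scaling (-0.59), centring on the hybridisation controls (-0.42), centring on the polyA controls (-0.40) and leaving out innervated MCK::cre array 1 (-0.88). In control muscle it differed by -0.24 ± 0.20 (limma adjusted p = 0.404). The genotype difference was -0.70 ± 0.20 in denervated muscle (limma adjusted p = 0.110) and -0.04 ± 0.22 in innervated muscle (limma adjusted p = 0.998). Centring on the hybridisation controls took the difference in denervated muscle past the threshold, at -1.08 (limma adjusted p = 0.0232). The denervation changes of Myh8 differed by -0.66 ± 0.29 between the genotypes, which did not pass (limma adjusted p = 0.623).

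Myh2, the fast 2A isoform, fell with denervation in both genotypes and was lower in denervated MCK::cre than in denervated control muscle. Its signals on probe set 1425153_at were 13960, 7565 and 8847 in denervated MCK::cre muscle. Denervated control muscle had 77796, 48761 and 79595. Innervated MCK::cre muscle had 91809 and 197374, and innervated control muscle 177921, 158294 and 184561. Only the innervated groups overlapped with each other, and the innervated MCK::cre arrays differed from one another more than those of any other group on the log scale. The means were 10124 ± 3384 in denervated MCK::cre, 68717 ± 17306 in denervated control, 144592 ± 74645 in innervated MCK::cre and 173592 ± 13658 in innervated control muscle (SD, n = 3, 3, 2 and 3).

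Denervation lowered Myh2 13.7-fold in MCK::cre muscle (-3.78 ± 0.32, limma adjusted p = 2.79e-06). In control muscle it was 2.58-fold lower (-1.37 ± 0.28, limma adjusted p = 0.00259), and -1.49 without denervated control array 3. Centring on the hybridisation controls ended the call in control muscle (-0.54, limma adjusted p = 0.161). Myh2 was 6.85-fold lower in denervated MCK::cre than in denervated control muscle (-2.78 ± 0.28, limma adjusted p = 2.62e-04), rank 23 by p, and stayed past the threshold under all 22 alternatives (-3.16 to -2.59). In innervated muscle the genotypes differed by -0.36 ± 0.32 (limma adjusted p = 0.998, 95% interval -1.05 to 0.32). The denervation changes differed by -2.41 ± 0.43 (limma adjusted p = 0.0391), and this call ended under 10 of 21 alternatives, with adjusted p between 0.0182 and 0.153 over all of them. It ended with the replicate block (-2.45, limma adjusted p = 0.0777), without the variance trend (limma adjusted p = 0.153) and with polyA centring (-2.31, limma adjusted p = 0.05003). It also ended on leaving out denervated MCK::cre array 2 (-2.23) or 3 (-2.34), denervated control array 1 (-2.31) or 3 (-2.29), innervated MCK::cre array 2 (-1.86) or innervated control array 1 (-2.43) or 3 (-2.46).

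Myh1, the fast 2X isoform, had 3 tested probe sets, and the brightest, 1427868_x_at, stands for the gene. In Affymetrix naming an x in the suffix marks probes that also match other sequences, and fast myosin transcripts resemble each other closely, so a part of its signal may come from other members. It had signals of 126518, 117201 and 147558 in denervated MCK::cre and 165130, 165158 and 124921 in denervated control muscle. Innervated MCK::cre muscle had 206750 and 231837, and innervated control muscle 208957, 215953 and 194743. All denervated arrays lay below all innervated ones, and the genotypes overlapped in either state. Denervation lowered this signal in MCK::cre muscle (-0.75 ± 0.15, limma adjusted p = 0.00291) and in control muscle (-0.46 ± 0.14, limma adjusted p = 0.0238), calls that ended under 3 of 22 alternatives in MCK::cre and 9 of 23 in control muscle. The second bright probe set, 1427520_a_at, gave -0.68 in MCK::cre (limma adjusted p = 0.00475) and -0.46 in control muscle (limma adjusted p = 0.0195), calls that ended under 5 of 22 alternatives in MCK::cre and 8 of 23 in control muscle. The third, 1452465_at, was dim, with means of 357.6 ± 56.3 in denervated MCK::cre and 147.9 ± 109.0 in denervated control muscle (SD, n = 3 each), within the range of the trp controls, so the size of its log2 differences is not exact. Innervated control muscle had 217.8 to 1702, which overlapped with denervated control muscle (36.9 to 254.8). It gave -2.22 in MCK::cre (limma adjusted p = 0.0529) and -2.60 in control muscle (limma adjusted p = 0.0133). The call in control muscle ended with the 5'-to-3' covariate (limma adjusted p = 0.333) and on leaving out denervated control array 2 (limma adjusted p = 0.0609) or innervated control array 1 (limma adjusted p = 0.0596) or 2 (limma adjusted p = 0.0541).

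Myh4, the fast 2B isoform and the main myosin of this muscle in the mouse, had 2 tested probe sets. On 1427026_at the signals were 178406, 149947 and 186844 in denervated MCK::cre and 205196, 178632 and 143152 in denervated control muscle. Innervated MCK::cre muscle had 230033 and 260936, and innervated control muscle 252093, 235604 and 210516. As for Myh1, denervated and innervated arrays did not overlap and the genotypes did. The signal of this probe set was 73.0 to 87.0% of the highest on its array, and any compression near the top of the scale was not tested. It fell in MCK::cre muscle (-0.52 ± 0.16, limma adjusted p = 0.0335) and in control muscle (-0.42 ± 0.15, limma adjusted p = 0.0480), but these calls ended under 12 of 22 alternatives in MCK::cre and 18 of 23 in control muscle. The other probe set, 1458368_at, fell by 0.99 in MCK::cre (limma adjusted p = 0.0069) and by 0.76 in control muscle (limma adjusted p = 0.0136). Its calls ended under 4 of 22 alternatives in MCK::cre and 5 of 23 in control muscle, among them polyA centring (limma adjusted p = 0.123 in MCK::cre and 0.190 in control muscle) and the 5'-to-3' covariate (-0.34 in MCK::cre and -0.19 in control muscle).

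The falls of Myh1 and Myh4 were small beside the uncertainty of scaling. In control muscle, centring on the hybridisation controls turned them to 0.37 for Myh1 and 0.41 for Myh4, and quantile normalization gave -0.03 and 0.02. In MCK::cre muscle quantile normalization took Myh4 to 0.006, and the call of Myh1 ended with centring on the hybridisation controls (-0.28), centring on the polyA controls (-0.25) and the 5'-to-3' covariate (-0.52). The second probe set of Myh1, 1427520_a_at, gave -0.21 there with hybridisation centring (limma adjusted p = 0.482) and -0.19 with polyA centring (limma adjusted p = 0.451), and did not pass without innervated MCK::cre array 2 (-0.54), nor in control muscle without denervated control array 2 (-0.45) or 3 (-0.41). Without denervated control array 3 neither Myh1 (-0.32) nor Myh4 (-0.28) passed in control muscle, nor did the second probe set of Myh4, 1458368_at (-0.60), which also did not pass in MCK::cre muscle without innervated MCK::cre array 2 (-0.93). Without innervated control array 1 neither gene passed in control muscle (limma adjusted p = 0.0600 for Myh1 and 0.142 for Myh4). Leaving out 1 array ended the call of Myh4 in MCK::cre muscle for denervated MCK::cre array 1 or 2 and innervated MCK::cre array 1 or 2 (-0.61 to -0.42). In control muscle it ended for every array other than denervated control array 1 and innervated control array 3 (-0.44 to -0.28), and with the replicate block (limma adjusted p = 0.0630). The genotypes did not differ past the threshold. In denervated muscle Myh1 differed by -0.21 ± 0.14 (limma adjusted p = 0.639, 95% interval -0.51 to 0.08) and Myh4 by -0.02 ± 0.15 (limma adjusted p = 0.976, 95% interval -0.34 to 0.29). In innervated muscle they differed by 0.09 (95% interval -0.25 to 0.42) and 0.08 (95% interval -0.28 to 0.43), both with limma adjusted p = 0.998.

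Myh7 and Myh6, the slow and cardiac isoforms, were close to background. Myh7 had signals of 292.1, 258.7 and 558.8 in denervated MCK::cre, 624.0, 676.4 and 634.5 in denervated control, 452.3 and 103.0 in innervated MCK::cre, and 319.5, 636.9 and 745.5 in innervated control muscle. It did not pass the test in any comparison. The genotype differences were -0.86 ± 0.50 in denervated muscle (limma adjusted p = 0.582) and -1.22 ± 0.56 in innervated muscle (limma adjusted p = 0.998). With denervation it changed by 0.63 ± 0.56 in MCK::cre and 0.26 ± 0.50 in control muscle. Myh6 on 1448826_at had 47.6, 85.4 and 159.8 in denervated MCK::cre and 394.7, 41.2 and 132.0 in denervated control muscle, against 469.3 and 406.5 in innervated MCK::cre and 303.0, 821.8 and 589.7 in innervated control muscle. With denervation it differed by -2.12 ± 0.83 in MCK::cre (limma adjusted p = 0.0760) and by -1.85 ± 0.74 in control muscle (limma adjusted p = 0.0785), with both denervated means inside the range of the trp controls. With the 5'-to-3' covariate it differed by -0.14 in MCK::cre (limma adjusted p = 0.950) and by -0.11 in control muscle (limma adjusted p = 0.952). The other probe set of Myh6, 1417729_at, did not pass the filter and ranged from 12.9 to 154.3 over all arrays. Of the probe sets shared by Myh6 and Myh7, 1448554_s_at was tested and passed in no comparison, and 1448827_s_at did not pass the filter.

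**Figure D2:**
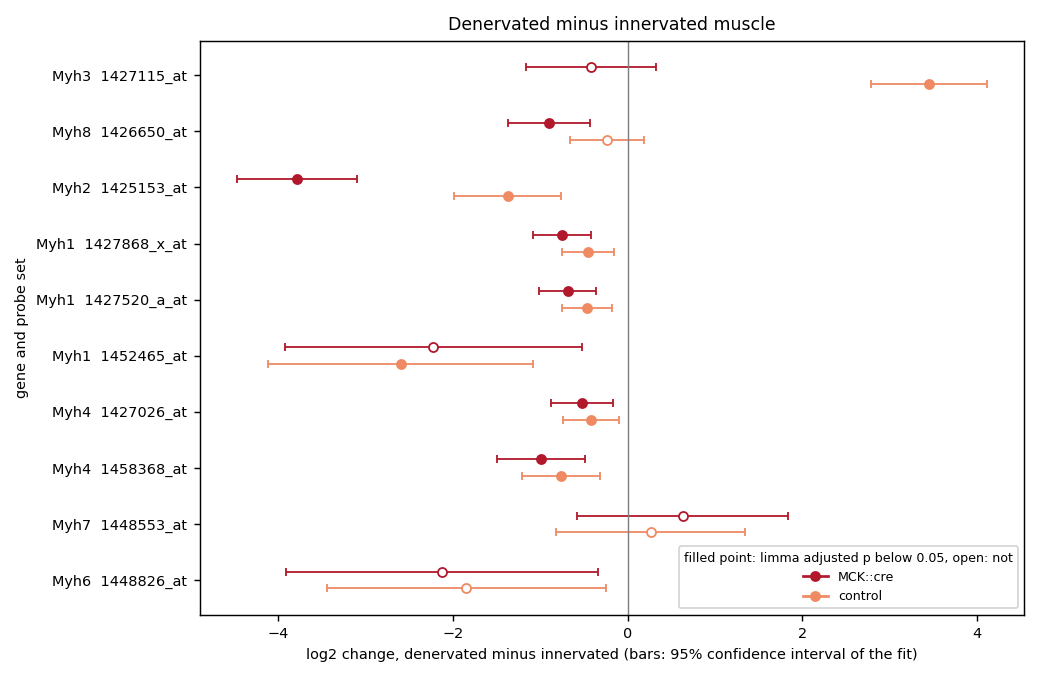
Denervated minus innervated muscle on the log2 scale for the 10 tested probe sets, MCK::cre and control side by side, with 95% confidence intervals and filled points where the limma adjusted p is below 0.05. Myh3 lies at -0.42 in MCK::cre and at 3.44 in control muscle, and Myh2 at -3.78 in MCK::cre and at -1.37 in control muscle.

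Counted together, 6 of the 10 tested probe sets passed with denervation in MCK::cre muscle, all lower (Myh2, Myh8, 2 of Myh1 and 2 of Myh4). Of all probe sets 26.3% passed there, 13.3% lower. In control muscle 7 of 10 passed, Myh3 higher and 6 lower (Myh2, 3 of Myh1, the dim one included, and 2 of Myh4), where 29.3% of all probe sets passed, 14.9% higher and 14.4% lower. Probe sets of 1 gene share their target, so these counts cover fewer genes. Without denervated control array 3 the count in control muscle was 3 (Myh3, Myh2 and the dim probe set of Myh1), and it was 4 without denervated control array 2 or without innervated control array 1. The count in MCK::cre muscle was 3 without innervated MCK::cre array 2. In denervated muscle the genotypes differed at 2 of 10, Myh3 and Myh2, both lower in MCK::cre, against 1.83% of all probe sets (1.02% lower). In innervated muscle 0 of 10 passed with limma, and 0 of all probe sets did. An unadjusted limma p below 0.05 was found there for 1030 of the 26170 probe sets. That is fewer than this threshold lets through on average where no probe set differs. The denervation changes differed at 2 of 10, Myh3 and Myh2, against 0.248% of all probe sets, with the limits on Myh2 given above. The comparisons share arrays with one another.

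**Figure D3:**
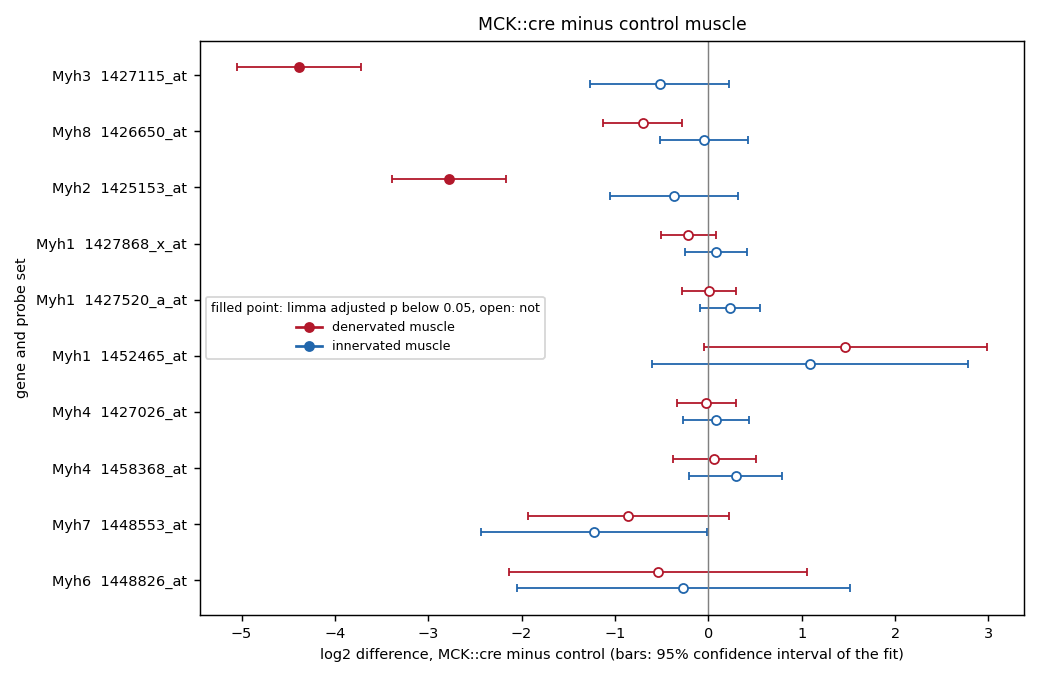
MCK::cre minus control on the log2 scale for the 10 tested probe sets in denervated and in innervated muscle, with 95% confidence intervals and filled points where the limma adjusted p is below 0.05. In denervated muscle Myh3 (-4.38) and Myh2 (-2.78) are the filled points, and in innervated muscle there are none.

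A ratio within an array does not depend on how arrays are scaled, so each member was also set against Myh4 on the same array. Myh4 was taken by 1427026_at alone, which changed by -0.52 in MCK::cre and -0.42 in control muscle with denervation. Its other probe set, 1458368_at, changed more, by -0.99 in MCK::cre and -0.76 in control muscle. Ratios to that probe set were not computed, so the sizes of the ratio differences, and the sign of small ones, may depend on this choice. Probes differ in brightness, so only differences of a ratio between groups are read here. The log2 ratio of Myh2 to Myh4 was -3.67, -4.31 and -4.40 in denervated MCK::cre and -1.40, -1.87 and -0.85 in denervated control muscle. In innervated muscle it was -1.33 and -0.40 in MCK::cre and -0.50, -0.57 and -0.19 in control. Denervated minus innervated, it differed by -3.26 in MCK::cre and -0.95 in control muscle, a mean of -2.11 (exact two-sided permutation within genotype, p = 0.005, the smallest that 200 arrangements allow). Myh2 was thus lower relative to Myh4 in denervated muscle.

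The ratio of Myh3 to Myh4 was -8.31, -8.21 and -8.71 in denervated MCK::cre and -3.73, -4.13 and -4.30 in denervated control muscle. In innervated muscle it was -8.71 and -8.32 in MCK::cre and -8.55, -8.02 and -7.18 in control. It differed by 0.10 with denervation in MCK::cre and by 3.86 in control muscle, a mean of 1.98 (exact permutation p = 0.03). Among the other members Myh6 had a mean difference of -1.51 (exact permutation p = 0.02), near background as described above. Myh1 had -0.14 (exact permutation p = 0.07), Myh7 0.91 (exact permutation p = 0.065) and Myh8 -0.10 (exact permutation p = 0.59). The p-values of these 6 ratios are unadjusted. Those of Myh3 and Myh6 reached 0.05 or more on leaving out single arrays, for Myh3 denervated MCK::cre array 1 or 2 or innervated MCK::cre array 1 and for Myh6 denervated control array 2, innervated MCK::cre array 1 or innervated control array 2 or 3. Those of Myh1 and Myh7 went below 0.05 on leaving out single arrays, for Myh1 denervated control array 2 or innervated control array 1 (exact permutation p = 0.04 for each) and for Myh7 innervated MCK::cre array 1 (exact permutation p = 0.025) or innervated control array 3 (exact permutation p = 0.04).

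**Figure D4:**
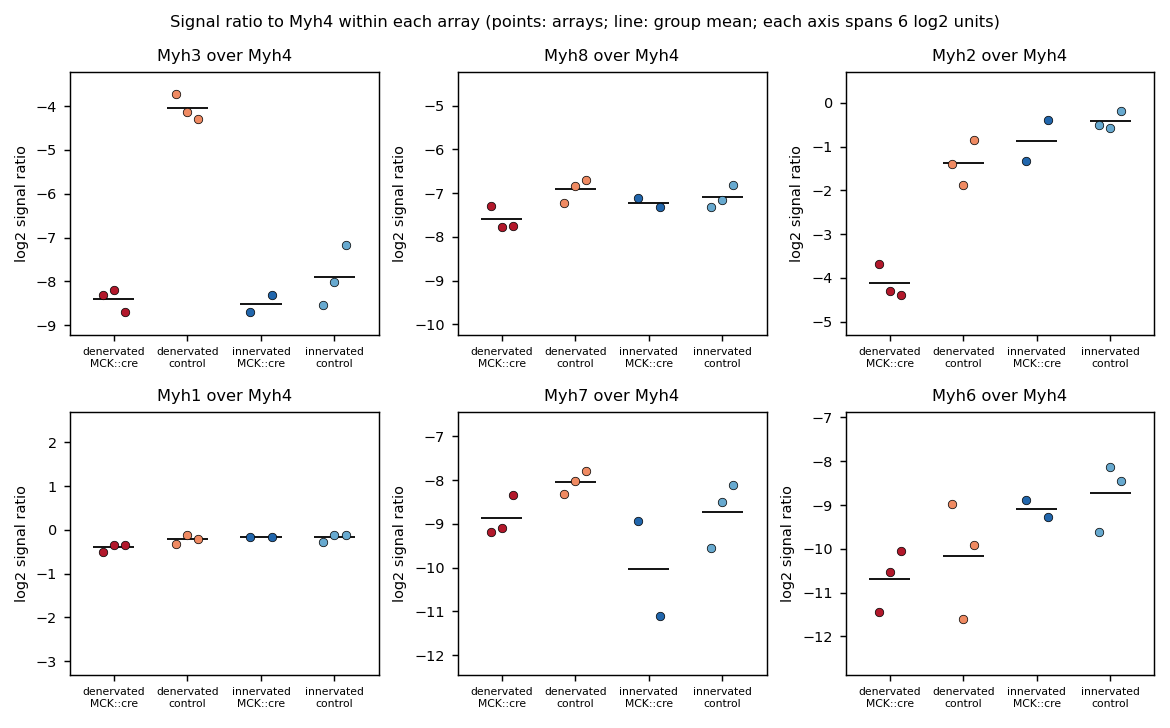
Log2 signal ratio of 6 members to Myh4 on each array by group, with the group mean as a line; every axis spans the same number of log2 units. The ratio of Myh2 is lowest in denervated MCK::cre muscle (mean -4.13), and that of Myh3 is high in denervated control muscle (mean -4.05) and near -8.4 in denervated MCK::cre muscle.

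For each member the 3 genes with the highest Pearson correlation of log2 signal over the 11 arrays were taken from 12207 genes. The arrays share their scaling and fall into 4 groups, so these correlations describe which genes follow the same groups and carry no test. Myh3 was most like Mymk, which drives fusion of myoblasts into fibres (r = 0.95), Enpp3, an ectonucleotidase (r = 0.95), and Tnni1, slow skeletal troponin I (r = 0.95). Mymk had 87.3 to 338.4 in denervated MCK::cre and 1141 to 3067 in denervated control muscle, against 251.1 to 300.8 in innervated MCK::cre and 231.3 to 320.5 in innervated control muscle. Apart from denervated control muscle, all its arrays lay inside the range of the trp controls. Tnni1 had 476.3 to 854.8 in denervated MCK::cre and 2023 to 4208 in denervated control muscle, against 490.2 to 1082 in innervated MCK::cre and 750.6 to 1211 in innervated control muscle. Like Myh3, all 3 genes stood highest on the denervated control arrays. Genes picked for following a member over these arrays share its pattern by that choice, so their log2 differences are given as a description, with no test. Denervated minus innervated control muscle, Mymk differed by 2.66, Enpp3 by 2.11 and Tnni1 by 1.60. Denervated MCK::cre minus denervated control muscle, Mymk differed by -3.41, Enpp3 by -2.67 and Tnni1 by -2.11.

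Myh2 was most like Synpo2l, a sarcomere Z-disc protein (r = 0.97), Asb15, a muscle ankyrin-repeat protein (r = 0.96), and Fhl1, a LIM-domain protein of the sarcomere (r = 0.96). Likewise as a description, the denervation difference of Asb15 was -4.17 in MCK::cre and -2.20 in control muscle, and that of Synpo2l -1.93 in MCK::cre and -0.34 in control muscle. Denervated MCK::cre minus denervated control muscle, Asb15 differed by -2.25, Synpo2l by -1.50 and Fhl1 by -0.69. Myh4 was most like Tnni2, fast troponin I, Atp2a1, the calcium pump of fast fibres, and Aldoa, a glycolytic aldolase, each at r = 0.99. Myh1 was most like Pkm, a glycolytic pyruvate kinase (r = 0.99), Actn3, the actinin of fast fibres (r = 0.98), and Med26, a Mediator subunit (r = 0.97). Myh8 went with Krt42, Zcchc10 and Il4i1 (r = 0.94 to 0.96), Myh7 with Snx17, Arid5a and Fbxl18 (r = 0.90 each), and Myh6 with Lrrc56, Muc20 and Nhlrc2 (r = 0.94 to 0.95).

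**Figure D5:**
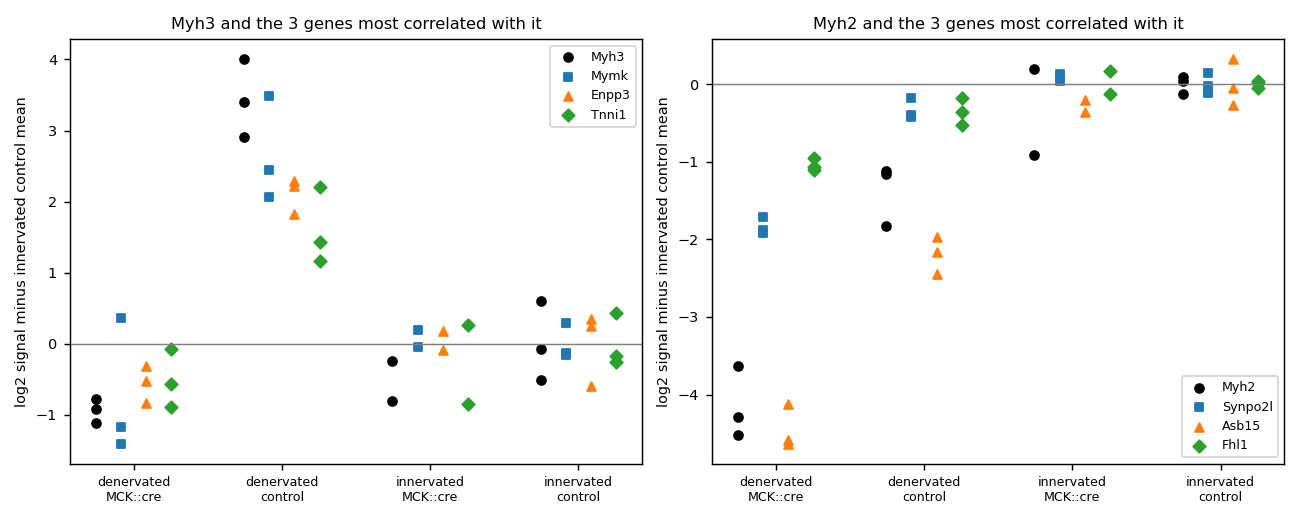
Log2 signal of Myh3 (left) and Myh2 (right), each with the 3 genes most correlated with it, on every array by group, as the difference from the mean of innervated control muscle. The genes of the left panel are high in denervated control muscle, and those of the right panel are lowest in denervated MCK::cre muscle.

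Of 8 genes of the myosin light chains and their kinases, with denervation 1 rose and 4 fell in MCK::cre muscle (median -0.81), where 30.5% of all 12214 genes passed at a median change of -0.011. In control muscle 1 rose and 6 fell (median -1.78), where 34.4% of genes passed at a median of -0.005. Mylk2, the skeletal myosin light chain kinase, fell in both genotypes, with log2 changes of -2.61 in MCK::cre and -2.38 in control muscle (limma adjusted p = 4.53e-06 in MCK::cre and 2.53e-06 in control muscle). Mylk4, a related kinase, fell by 0.96 in MCK::cre and by 1.72 in control muscle. Mylpf, the fast regulatory light chain, fell by 0.60 in MCK::cre and by 0.52 in control muscle. Myl4, the embryonic and atrial light chain, rose by 1.16 in MCK::cre (limma adjusted p = 0.0418) and by 2.13 in control muscle (limma adjusted p = 4.45e-04). Its genotype difference in denervated muscle, -1.07, did not pass (limma adjusted p = 0.198), and 0 of the 8 genes passed there, against 2.19% of all genes.

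Of 8 tested partners of the thick filament, 2 rose and 6 fell in MCK::cre (median -0.67), where 30.5% of all genes passed. In control muscle 2 rose and 5 fell (median -0.60), where 34.4% of all genes passed. Mybph, myosin binding protein H, rose by 1.47 in MCK::cre (limma adjusted p = 0.00831) and by 2.86 in control muscle (limma adjusted p = 2.13e-05). Mybpc2, the fast myosin binding protein C, fell by 0.82 in MCK::cre and by 0.78 in control muscle, and Mybpc1, the slow one, by 0.71 in MCK::cre and by 0.70 in control muscle. The M-band protein Myom1 fell by 0.49 in MCK::cre and by 0.69 in control muscle. Between the genotypes 0 of 8 passed in denervated muscle, where 2.19% of all genes passed.

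Among 10 tested genes for folding, assembly and turnover of myosin, 4 rose and 2 fell with denervation in MCK::cre (median 0.32), where 30.5% of all genes passed. In control muscle 5 rose and 2 fell (median 0.43), where 34.4% of all genes passed. Fbxo32, a ubiquitin ligase of muscle atrophy, rose by 2.52 in MCK::cre and by 1.87 in control muscle. Hsp90aa1, a chaperone that folds the myosin head, rose by 0.89 in MCK::cre and by 1.43 in control muscle, and the small heat shock protein gene Hspb1 by 1.58 in MCK::cre and by 1.95 in control muscle. Smyd1, a methyltransferase needed for thick filament assembly, fell by 2.09 in MCK::cre and by 1.36 in control muscle. It was the 1 gene of this list that differed between the genotypes in denervated muscle, at -0.59 (limma adjusted p = 0.0393). There 2.19% of all genes passed.

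Of 24 tested regulators of myosin genes and fibre type, 7 rose and 10 fell with denervation in MCK::cre (median -0.20), where 30.5% of all genes passed. In control muscle 7 rose and 8 fell (median -0.26), where 34.4% of all genes passed. Myog, the myogenic factor myogenin, had 64499 to 73773 in denervated MCK::cre and 60644 to 97362 in denervated control muscle, against 835.3 to 1647 in innervated MCK::cre and 1069 to 1512 in innervated control muscle. It rose by 5.85 in MCK::cre and by 6.05 in control muscle, and its genotype difference in denervated muscle was -0.27 (limma adjusted p = 0.767). Tead4, which binds M-CAT letters, rose by 2.11 in MCK::cre and by 3.21 in control muscle, and Myf6, a myogenic factor of adult fibres, by 1.42 in MCK::cre and by 1.96 in control muscle. Hdac4, a histone deacetylase induced by denervation, rose by 3.54 in MCK::cre and by 2.57 in control muscle. In denervated muscle Hdac4 was higher in MCK::cre (0.84, limma adjusted p = 0.0101). The other 2 regulators that passed there, Vgll2 (-0.93) and Rcan1 (-0.85), were lower (limma adjusted p = 0.0136 for each), against 2.19% of all genes that passed.

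Markers of slow fibres moved in both directions. Of 9 tested genes, 1 rose and 1 fell with denervation in MCK::cre (median -1.15), where 30.5% of all genes passed. In control muscle 3 rose and 3 fell (median 0.04), where 34.4% of all genes passed. Atp2a2, the slow calcium pump, rose by 1.54 in MCK::cre and by 1.85 in control muscle, and Casq2, the slow calsequestrin, fell by 2.46 in MCK::cre and by 1.54 in control muscle. In denervated muscle Tnni1 (-2.11) and Tnnt1, slow troponin T (-1.50), were lower in MCK::cre (limma adjusted p = 0.00673 and 0.00702). The other 7 did not pass, and 2.19% of all genes passed there. Tnni1 is among the genes picked above for following Myh3, so its difference is not separate from that choice. Tnni1 is also made in developing fast muscle. The summed signal of the slow list was 48217 to 61322 in denervated MCK::cre and 103583 to 116390 in denervated control muscle, against 78833 to 112613 in innervated MCK::cre and 59925 to 234136 in innervated control muscle.

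Satellite cells and myoblasts make Myh3 when they form new fibres. A list of 11 genes known from these cells was read, all tested: Pax7, Pax3, Myf5, Myod1, Cdh15, Itga7, Chodl, Mymk, Ncam1, Des and Vcam1. In bulk muscle the signal of such genes can also come from the fibres, so it does not measure these cells. With denervation 4 rose and 2 fell in MCK::cre (median 0.09), where 30.5% of all genes passed. In control muscle 5 rose and 1 fell (median 0.52), where 34.4% of all genes passed. The summed signal of the 11 genes was 118386 to 124066 in denervated MCK::cre and 122990 to 148824 in denervated control muscle, against 101346 to 112398 in innervated MCK::cre and 108571 to 131118 in innervated control muscle. Ncam1 rose by 1.85 in MCK::cre and by 2.76 in control muscle, and Myod1 by 1.98 in MCK::cre and by 1.96 in control muscle. In denervated muscle 2 of 11 differed between the genotypes, where 2.19% of all genes passed. They were Mymk (-3.41) and Itga7, the laminin-binding integrin alpha7 (-1.29), both lower in MCK::cre. Mymk is among the genes picked above for following Myh3, so its difference is not separate from that choice. Pax7, the defining satellite cell factor, differed by 0.37 between the genotypes in denervated muscle (limma adjusted p = 0.728). The part of these cells in the level of Myh3 was not tested.

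Of 9 heart markers 2 had a tested probe set, Tnnt2 and Ryr2, and of 5 muscle spindle markers 2, Egr3 and Erbb3. None of these 4 differed between the genotypes in denervated muscle past the threshold, where 2.19% of all genes passed. Tnnt2, cardiac troponin T, which developing skeletal muscle also makes, rose by 1.26 in MCK::cre (limma adjusted p = 0.00143) and by 1.43 in control muscle (limma adjusted p = 1.81e-04).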

How the data were processed

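Affymetrix arrays of 45101 probe sets were read for 11 tibialis anterior samples. The deposited values are probe set intensities on a linear scale, and the authors had scaled each array to a 2% trimmed mean of 2500, as the values show. The software behind them: not given in the sources used here. Groups came from the sample titles.

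Signals were used as log2(signal + 16). A probe set was kept if it exceeded the median of the array on 2 or more of the 11 arrays, and 64 Affymetrix control probe sets were left out, which left 26170. Each of 12214 genes is represented by the brightest kept probe set (mean log2 signal). The platform annotation listed 35890 probe sets, of which 34958 had 1 gene symbol and 932 several; 9160 non-control probe sets were not listed and are unnamed here. The 11 arrays entered a single fit of group means with limma 3.58.1 in R 4.3.3 (eBayes with trend), with 5 comparisons, Benjamini-Hochberg adjustment over all kept probe sets and a threshold of 0.05. The pipeline was tested on simulated data. The number of arrays limits the precision.

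The members and lists were chosen with earlier results of these data known. Named are all member probe sets, the 3 genes most correlated with each member, and up to 4 genes per list with the smallest p for denervation in control muscle, and in addition, chosen after their values were seen, listed genes that differed between the genotypes, and Pax7. Denervated and innervated control arrays that carry the same number deviated together from their group means (r = 0.114, 0.217 and 0.303 over probe sets). All were above the 0.1 that was set, so the numbers were taken to pair these arrays. In the other pairs of groups r for arrays of the same number lay between -0.183 and 0.096. Arrays of different numbers had r up to 0.038 between denervated and innervated control muscle, but up to 0.183 between other groups. Passing 0.1 therefore does not by itself mark a pair, and the pairing stays uncertain. The main fit of group means did not use it. The replicate block also took in the MCK::cre arrays, where same-numbered denervated and innervated arrays had r of 0.031 and 0.052. Alternatives were other pseudocounts, filters, normalizations, centrings, a 5'-to-3' covariate, the replicate block and leaving out each array. Centring on the polyA controls and the block in the control arrays alone were added after seeing the data.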

Additional observations from a re-analysis of the deposited data

Results flagged for a closer look

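The denervation changes of 2 myosin genes differed between MCK::cre and control muscle by the test of the difference itself. For Myh3 the denervation change in MCK::cre minus that in control muscle was -3.86 (limma adjusted p = 0.00603): the change was -0.42 in MCK::cre and 3.44 in control muscle. For Myh2 it was -2.41 (limma adjusted p = 0.0391): the change was -3.78 in MCK::cre and -1.37 in control muscle, and the call ended under 10 of 21 alternatives. The leukocyte marker Ptprc also differed (1.76, limma adjusted p = 0.0259), and its part in these results was not tested.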

How the results depend on the processing

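Myh3 stayed past the threshold under all alternatives run, for denervation in control muscle (3.16 to 4.27), for genotype in denervated muscle and for the difference of the denervation changes. Myh2 did so for denervation in MCK::cre muscle (-4.33 to -3.23) and for genotype in denervated muscle. The count of member probe sets that passed with denervation in MCK::cre muscle, 6, was 3 with median scaling, 1 with centring on the hybridisation or the polyA controls and 2 with the 5'-to-3' covariate, and 3 to 8 on leaving out 1 array. In control muscle, where it was 7, it was 4 without the filter or without the variance trend, 3 with quantile normalization or polyA centring, 2 with centring on the hybridisation controls or the 5'-to-3' covariate, and 3 to 8 on leaving out 1 array. For the difference of the changes it was 1 in place of 2 without the variance trend, with the replicate block and with polyA centring, and 1 to 2 on leaving out 1 array. The denervation change reversed in MCK::cre muscle for Myh4 with quantile normalization (0.00600), and in control muscle for Myh4 with quantile normalization (0.0231) and hybridisation centring (0.41) and for Myh1 with hybridisation centring (0.37). Over leaving out 1 array, the mean ratio differences to Myh4 ranged from -0.16 to -0.11 for Myh1, 1.82 to 2.17 for Myh3, 0.37 to 1.45 for Myh7 and -1.81 to -1.15 for Myh6. The cause of these changes was not tested. Myh6 passed in MCK::cre muscle without denervated control array 2 (-2.12) and in control muscle without denervated control array 1 (-2.57), and was -0.14 in MCK::cre and -0.11 in control muscle with the 5'-to-3' covariate. The replicate block ended the calls of Myh2 for the difference of the changes (-2.45) and of Myh4 for denervation in MCK::cre (-0.47) and in control muscle (-0.42, limma adjusted p = 0.0630), and changed no other call of a member; blocking the control arrays alone kept Myh4 in control muscle (limma adjusted p = 0.0318). Of 35 gene-by-comparison values, 20 passed under no setting, and 14 of these changed sign in at least 1.

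Over all probe sets, hybridisation centring moved the number called to 15569 for denervation in control muscle (7670 before) and 1396 for genotype in denervated muscle (478 before). The 5'-to-3' covariate gave 3320 for denervation in MCK::cre (6894 before) and 4488 in control muscle. Without the variance trend 279 were called for genotype in denervated muscle and 10 for the difference of the changes (65 before). Leaving out 1 array took the last count to between 16 and 108, the count for denervation in MCK::cre muscle to 4595 and 4337 (without innervated MCK::cre array 1 or 2), and that for genotype in denervated muscle to 278, 245 and 247 (without denervated MCK::cre array 1, 2 or 3) and 223 and 271 (without denervated control array 1 or 2). The share of calls that were higher, 49.6% for denervation in MCK::cre and 50.7% in control muscle, was 87.3% in MCK::cre and 95.4% in control muscle with hybridisation centring, and 88.7% in MCK::cre and 84.0% in control muscle with polyA centring. It was 78.2% in MCK::cre muscle with median scaling. For genotype in denervated muscle it was 44.1%, 3.87% with hybridisation centring and 56.5% with median scaling, and for the difference of the changes 33.8%, 2.60% with hybridisation centring and 28 of 56 calls with median scaling. The median denervation change over all genes was 0.46 in MCK::cre and 0.82 in control muscle with hybridisation centring, 0.49 in MCK::cre and 0.39 in control muscle with polyA centring, and 0.30 in MCK::cre muscle with median scaling. For genotype it was -0.37 in denervated muscle with hybridisation centring, and with median scaling 0.11 in denervated and -0.13 in innervated muscle. For the difference of the changes it was -0.34 with hybridisation centring, 0.12 with polyA centring and 0.24 with median scaling.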

Other observations

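Of 5 tested myosin heavy chains outside the 7 members, 2 rose and 2 fell with denervation in MCK::cre muscle, where 30.5% of all genes passed. In control muscle 1 rose and 1 fell, where 34.4% of all genes passed. Myh14, a nonmuscle myosin heavy chain, rose by 2.22 in MCK::cre (limma adjusted p = 3.74e-06) and by 1.46 in control muscle (limma adjusted p = 3.53e-05). Myh11, the smooth muscle isoform, fell by 0.93 in MCK::cre and by 1.14 in control muscle, and 4 of 5 tested smooth muscle markers, Myh11 among them, fell in either genotype. Myh10, another nonmuscle isoform, fell by 1.47 with denervation in MCK::cre muscle (limma adjusted p = 7.16e-04) and differed by -0.46 in control muscle (limma adjusted p = 0.137). In denervated muscle Myh10 was the 1 gene of this list that differed between the genotypes, lower in MCK::cre by 1.08 on the log2 scale (limma adjusted p = 0.0231). There 2.19% of all genes passed.

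Of 9 tested macrophage and leukocyte markers, 6 rose with denervation in MCK::cre, where 30.5% of all genes passed. In control muscle 4 rose, where 34.4% of all genes passed, and none passed as lower in either genotype. Cd68, a macrophage lysosomal protein, rose by 4.87 in MCK::cre and by 3.89 in control muscle. The summed signal of the 9 markers was 63453 to 77234 in denervated MCK::cre and 51007 to 68126 in denervated control muscle, against 20747 to 22803 in innervated MCK::cre and 25839 to 33540 in innervated control muscle. Ptprc, the leukocyte common antigen, had 2814 to 4422 in denervated MCK::cre and 2379 to 3180 in denervated control muscle, against 961.2 to 1018 in innervated MCK::cre and 2669 to 3162 in innervated control muscle. Its innervated MCK::cre arrays lay below all others. None of the 9 differed between the genotypes in denervated muscle past the threshold, where 2.19% of all genes passed.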
